A study of Penicillium oxalicum with 18 samples.

Results

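Transcripts of the filamentous fungus Penicillium oxalicum were compared between wild-type mycelium on a plant substrate and wild-type mycelium on N-acetylglucosamine (GlcNAc). Genes entered by level alone: at least 1 FPKM (mapped fragments scaled by gene length and by the size of the library) in at least 3 of the 6 libraries. This kept 7959 of the 9261 identifiers in the table. Both groups were strain 114-2, labelled wild type, with 3 libraries each. Per the labels, mycelium was pre-grown for 24 h at 30 °C with 2% glucose and then moved for 24 h to a second medium. That medium held 1% bran with 1% microcrystalline cellulose (bran-cellulose) in the first group and 2% GlcNAc, which the labels write N-GlcNAc, in the second. The growth protocol describes the bran-cellulose and glucose media, while GlcNAc is named in the sample labels. Mycelium on 2% glucose and a nag3 deletion strain on all 3 media make up the rest of the 18 libraries.

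Bran and cellulose are polymers that a fungus must digest outside its cells. Cellobiohydrolases and endoglucanases cut cellulose to short sugars, xylanases cut the xylan of bran, glucoamylases release glucose from its starch, and β-glucosidases split cellobiose to glucose. In filamentous fungi these genes answer to activators such as ClrB, XlnR and AmyR and to the repressor CreA, which acts when easily used sugars are present. GlcNAc is the unit of chitin, a polymer of the fungal cell wall, and can be taken up directly. The table pairs no identifier with a name. For 13 locus tags, names recalled from the literature on strain 114-2 are used; the deposited table does not hold them. No other identifier is given a name or a role.

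The media were alike in noise: across members, the median standard deviation of log2(FPKM + 1) was 0.124 on bran-cellulose and 0.122 on GlcNAc. FPKM is already scaled by library size, so its sums do not measure depth. They ran from 999625 to 1029120 on bran-cellulose and from 1066700 to 1083830 on GlcNAc, without overlap. Between 879 and 955 identifiers were listed at 0, with 955 in bran-cellulose replicate 1 and 879 in each of the other bran-cellulose libraries. Across the 7959 genes, Pearson correlations of log2(FPKM + 1) were 0.976 to 0.982 within bran-cellulose, 0.982 to 0.985 within GlcNAc and 0.844 to 0.850 between the media. Some zeros stood against their own group: 16 genes were at 0 in 1 bran-cellulose library and at 10 FPKM or more in both others, 11 of them in replicate 1, and 13 genes behaved so on GlcNAc. Whether replicates came from separate cultures is not stated in the labels, and the p-values below then cover only the variation among these libraries, part or all of which may be technical. In bulk mycelium, a change in the share of a cell type and a change in RNA per cell cannot be told apart.

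Between the media 19.5% of the genes differed, and more were higher on bran-cellulose than on GlcNAc. By limma on log2(FPKM + 1), called at an adjusted p under 0.05 with a log2 difference of at least 1, 1012 genes were higher on bran-cellulose and 541 were higher on GlcNAc. These are 12.7% and 6.80% of the members, beside 12.2% and 6.53% of all 8390 genes fitted. By the adjusted p alone, 2717 and 1268 members passed, beside 32.8% and 15.3% of all genes fitted. The split depended on scaling: 65.2% of the calls were on the bran-cellulose side with FPKM as deposited, and 54.6% after median-ratio scaling (813 against 675), which moved the median of all members by -0.19, from 0.16 to -0.029.

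Among called genes, the median differences were of like size in both directions, though the call rule itself requires at least 1. The median log2 difference was 1.57 among genes called on the bran-cellulose side and -1.67 among those called on the GlcNAc side. A log2 difference of 4 or more was reached by 75 of the 1012 genes on the first side and 58 of the 541 on the second. For 6 or more the numbers were 16 and 12. Such large differences thus made up a greater share of the calls on the GlcNAc side. The share of genes called varied with level: it was 38.5% of the 530 genes with a mean log2(FPKM + 1) between 1 and 2, 13.5% of the 1753 between 4 and 5 and 19.9% of the 578 above 8. The expression rule favours low genes that are high on one medium; it kept 530 of the 560 identifiers between 1 and 2, and 84 of the 908 from 0 to 1, for which no share is read. Of those 578 abundant genes, 46 were higher on bran-cellulose and 69 on GlcNAc, so the balance there was opposite to that of all genes. The 25 unannotated XLOC loci among the members gave 5 calls on the bran-cellulose side and 6 on the GlcNAc side, beside 12.7% and 6.80% of all members. Whether these loci differ from other genes was not tested.

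**Figure D1:**
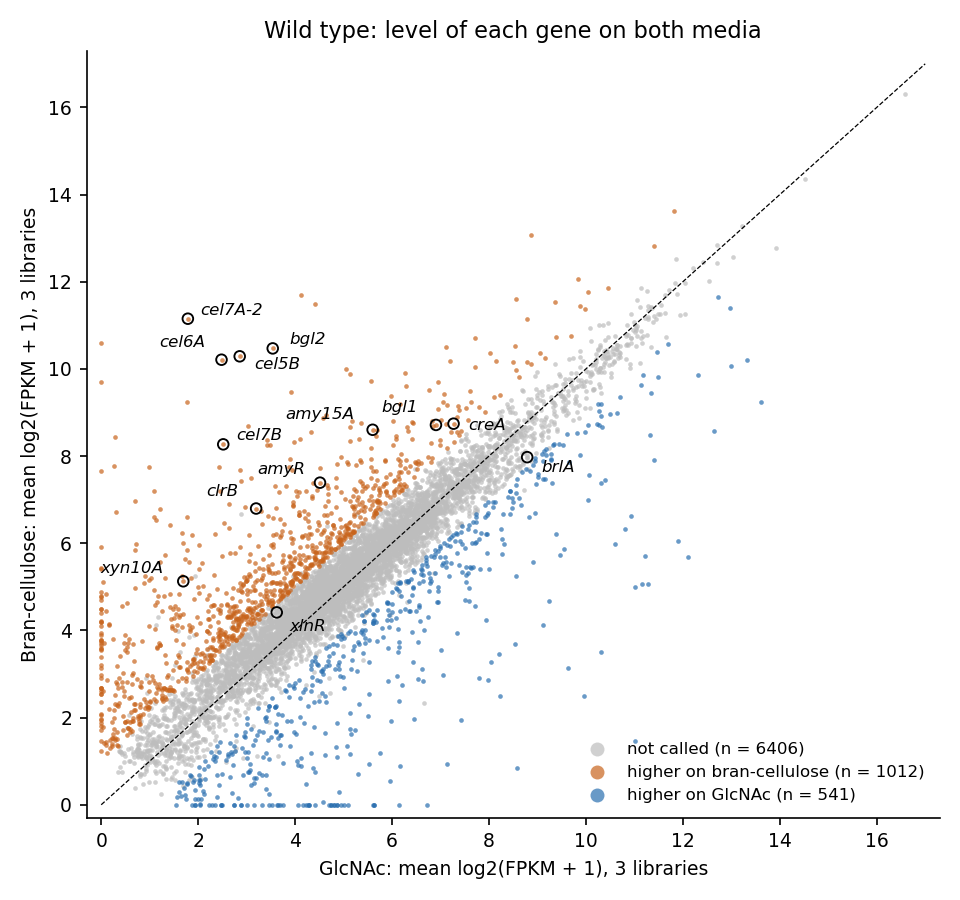
Mean log2(FPKM + 1) of each of the 7959 genes over 3 wild-type libraries on GlcNAc (horizontal) and on bran-cellulose (vertical); the dashed line marks equal levels, and circles mark the 13 named tags. The 1012 orange genes were called higher on bran-cellulose and the 541 blue genes higher on GlcNAc; the cellulase genes and bgl2 lie at the upper left, and brlA is the tag below the line.

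As a share of each library, the exchange was close to even. Genes called on the bran-cellulose side held 16.2% to 17.4% of the summed FPKM in the bran-cellulose libraries and 3.61% to 3.91% in the GlcNAc libraries. Those called on the GlcNAc side held 3.93% to 4.16% and 16.6% to 17.7%. These genes were chosen by the same values, so the shares describe their weight and test nothing. A level of at least 1000 FPKM on the higher medium was reached by 34 of the 1012 and by 43 of the 541. The most abundant transcript was the same gene in all 6 libraries, at 7.68% to 9.86% of the sum, and it was not called (log2 difference -0.27, adjusted p = 0.287).

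**Figure D2:**
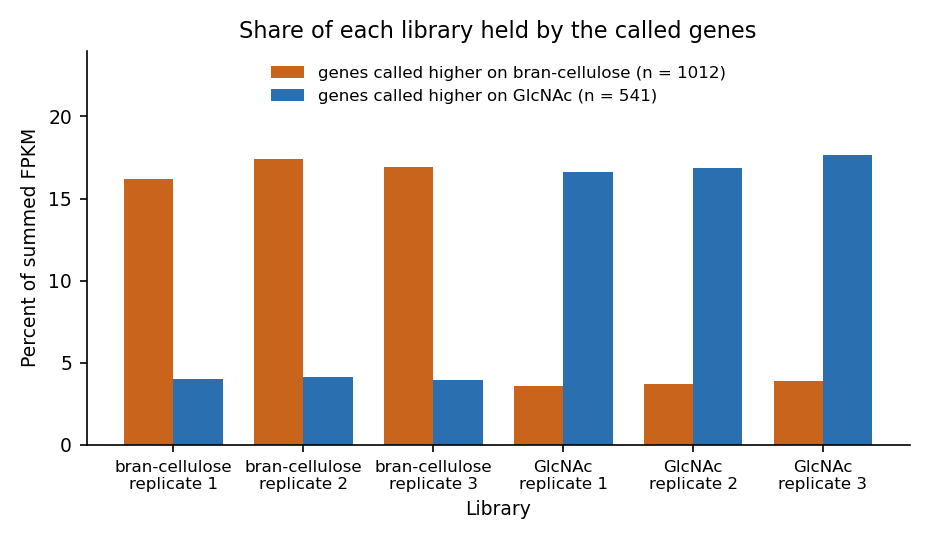
Percent of the summed FPKM (vertical, from 0) held in each of the 6 wild-type libraries by the genes called higher on bran-cellulose (orange) and higher on GlcNAc (blue). Each set makes up 16.2% or more of its own medium's libraries and 4.16% or less of the other medium's.

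All 4 cellulase genes were higher on bran-cellulose, from levels of a few FPKM on GlcNAc to those of abundant transcripts. cel7A-2 (PDE_07945) encodes the main cellobiohydrolase, an enzyme that works along cellulose chains from their ends. It was at 2160.0, 2414 and 2257 FPKM in the 3 bran-cellulose libraries and at 1.85, 2.78 and 2.82 FPKM in the 3 GlcNAc libraries. The mean was 2277 ± 128 against 2.48 ± 0.549 FPKM (SD, n = 3), a ratio of 917, and the log2 difference was 9.36 (SE 0.21, adjusted p = 5.44e-14). It ranked 3 among the 1012 genes on its side.

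The second cellobiohydrolase gene, cel6A (PDE_07124), was at 1003, 1287 and 1287 FPKM on bran-cellulose and at 5.83, 4.75 and 3.44 on GlcNAc. Its means of 1192 ± 164 and 4.67 ± 1.20 FPKM differed 255 times (log2 difference 7.73, SE 0.17, adjusted p = 4.91e-14), and replicate 1 was the lowest on the first medium and the highest on the second. Endoglucanases cut within the chain. The endoglucanase gene cel5B (PDE_09226) was at 1104, 1338 and 1322 FPKM on bran-cellulose and 6.68, 6.43 and 5.67 on GlcNAc (log2 difference 7.43, SE 0.12, adjusted p = 3.26e-15). The endoglucanase gene cel7B (PDE_07929) was at 298.5, 318.3 and 306.1 against 4.68, 5.25 and 4.29 FPKM (log2 difference 5.75, SE 0.12, adjusted p = 3.54e-14), so in FPKM it was the lowest of the 4 on bran-cellulose but not on GlcNAc. No library of one medium reached the range of the other for any of these genes. Such separation was common: the bran-cellulose libraries all stood above the GlcNAc libraries for 40.5% of all genes fitted and below them for 21.8%, and for 1007 of the 1012 and 535 of the 541 called genes the media did not overlap.

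The median log2 difference of the 4 was 7.58, beside 0.16 for all members. Together they held 0.448% to 0.536% of the summed FPKM on bran-cellulose and 0.00151% to 0.00180% on GlcNAc. Their wild-type levels on glucose, 3.21 FPKM for cel7A-2, 9.48 for cel6A, 7.18 for cel5B and 4.37 for cel7B as means of 3 libraries, were also far below those on bran-cellulose.

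Both β-glucosidase genes were higher on bran-cellulose, by very different amounts. bgl2 (PDE_00579), which encodes an intracellular β-glucosidase, was at 1203, 1521 and 1558 FPKM on bran-cellulose and at 11.4, 9.90 and 10.6 on GlcNAc. This is a 134-fold ratio of means (log2 difference 6.93, SE 0.15, adjusted p = 4.91e-14), and the difference ranked 12 among the genes called on its side. bgl1 (PDE_02736), the gene of the main secreted β-glucosidase, was well expressed on both media, at 419.3, 447.2 and 393.0 FPKM against 112.7, 123.1 and 121.4. Its ratio was 3.53 (log2 difference 1.81, SE 0.11, adjusted p = 2.84e-09). In FPKM, bgl1 thus stood above bgl2 on GlcNAc, and bgl2 stood above bgl1 on bran-cellulose. This order rests on the division by gene length, taken up under the data processing, and may not hold for transcript numbers.

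The xylanase and glucoamylase genes followed the same direction from unlike starting levels. xyn10A (PDE_08094), a xylanase gene, was at 33.6, 35.3 and 33.0 FPKM on bran-cellulose and at 2.34, 1.82 and 2.59 on GlcNAc (ratio 15.1, log2 difference 3.43, SE 0.12, adjusted p = 9.14e-12). amy15A (PDE_01201), the glucoamylase gene, was at 396.2, 428.7 and 344.0 FPKM against 47.0, 47.2 and 48.3 (ratio 8.20, log2 difference 3.004, SE 0.22, adjusted p = 3.37e-08). The 3 GlcNAc libraries of amy15A lay within 1.26 FPKM of each other, while its bran-cellulose libraries spread over 84.7 FPKM. The groups did not overlap for either gene.

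Of the 4 regulator genes, 3 were called, all higher on bran-cellulose. clrB (PDE_05999), the activator of cellulase genes, was at 104.8, 107.5 and 118.8 FPKM against 8.46, 7.62 and 8.44, a ratio of 13.5 (log2 difference 3.601, SE 0.15, adjusted p = 4.52e-11). amyR (PDE_03964), the activator of amylase genes, was at 166.9, 181.6 and 153.0 FPKM against 20.9, 22.4 and 22.3, a ratio of 7.65 (log2 difference 2.88, SE 0.20, adjusted p = 1.44e-08). For both activator genes the lowest bran-cellulose library (104.8 and 153.0 FPKM) stood far above the highest GlcNAc library (8.46 and 22.4 FPKM).

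creA (PDE_03168), the gene of the carbon catabolite repressor, was also higher on bran-cellulose. It was at 457.4, 534.4 and 320.0 FPKM on bran-cellulose and at 166.3, 145.2 and 149.0 on GlcNAc (ratio 2.85, log2 difference 1.47, SE 0.17, adjusted p = 5.21e-06), and its bran-cellulose libraries were the most spread of the regulators. xlnR (PDE_07674) encodes an activator known from xylanase genes and some cellulase genes. It was at 20.3, 22.5 and 18.4 FPKM against 11.8, 11.97 and 10.2. Its log2 difference of 0.79 (SE 0.14) had an adjusted p of 0.00022 but missed the fold threshold, so it was not called. Glucose libraries of the wild type stood at 38.1 FPKM for clrB, 223 for amyR, 459 for creA and 20.1 for xlnR, as means of 3.

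Only brlA (PDE_00087), a central regulator of conidiation, had a higher mean on GlcNAc among the 13 tags. It was at 301.4, 243.0 and 214.9 FPKM on bran-cellulose and at 468.9, 499.3 and 366.6 on GlcNAc. The log2 difference was -0.81 (SE 0.34, adjusted p = 0.0599) and was not called. After median-ratio scaling it was -1.01 with an adjusted p of 0.0213 and was called on the GlcNAc side, while after quantile normalization it was -0.71 with an adjusted p of 0.104 and was not called. In a limma fit of only the compared groups the adjusted p was 0.00356 (log2 difference -0.81). With array weights it was 0.000924 (log2 difference -0.87). Both of these fits missed only the fold threshold. In all, 11 of the 13 tags were higher on bran-cellulose, 0 were called higher on GlcNAc and 2 were not called. The tags were chosen with earlier results of these data known, most of them for their role in plant polymer digestion, so this count does not stand for genes in general.

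**Figure D3:**
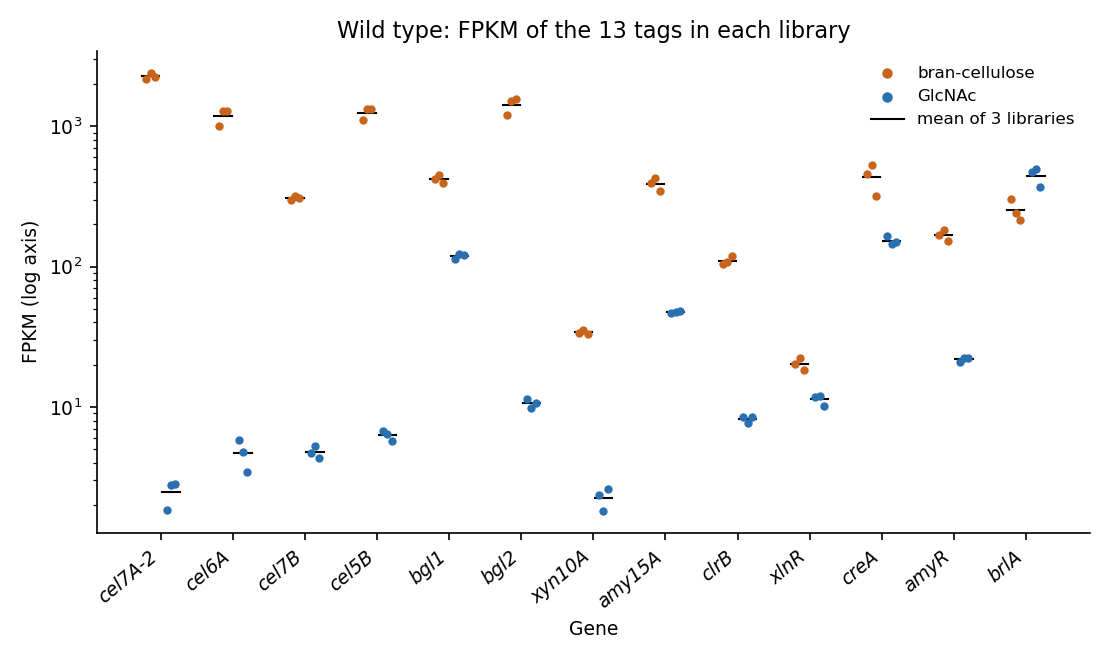
FPKM (log axis) of the 13 named tags in each wild-type library on bran-cellulose (orange) and GlcNAc (blue), with the mean of 3 libraries as a bar. The groups are apart for each tag, as they are for most called genes and for many not called; the gap is widest for cel7A-2 (2277 against 2.48 FPKM) and narrowest for brlA and xlnR, the 2 tags that were not called.

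Outside the tags, the greatest difference on the bran-cellulose side belonged to PDE_07655. It was at 1342, 1498 and 1822 FPKM on bran-cellulose and was listed at 0 in all 3 GlcNAc libraries, so no fold is given (adjusted p = 4.91e-14). On the GlcNAc side it belonged to PDE_02095, at 1739, 1985 and 2583 FPKM on GlcNAc and at 0, 20.45 and 0 on bran-cellulose (log2 difference -9.54, SE 1.48, adjusted p = 7.65e-05). Its size rests on the zeros: leaving out 1 library at a time gave -11.02 to -8.81, and -11.02 was reached without bran-cellulose replicate 2, the library that was not at 0.

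Few genes were listed at 0 throughout one of the media and clearly present on the other. Of the members, 19 were listed at 0 in all 3 GlcNAc libraries and at 10 FPKM or more in all 3 bran-cellulose libraries, with means of 12.6 to 1554 FPKM and a median of 25.2. In the opposite direction there were 25, with GlcNAc means of 11.3 to 104 FPKM and a median of 26.8. At least 100 FPKM was reached by 3 of the 19 and by 1 of the 25. Most were not restricted to 1 medium: on wild-type glucose 16 of the 19 and 19 of the 25 were above 0 in at least 1 library, and 15 of each had a mean of at least 1 FPKM there. Of the 19, 5 had the same pattern in the deletion strain by the same levels, and of the 25, 7 did. A value of 0 in the table can be a failed estimate as well as an absent transcript, and it says only that the gene was listed at 0.

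Some called genes lay next to each other in the numbering of the locus tags. Runs of at least 4 consecutive tag numbers called in the same direction numbered 10 on the bran-cellulose side, with 48 genes, and 6 on the GlcNAc side, with 27 genes. Positions were not used here, and neighbouring tag numbers stand only for neighbouring names. A tag number that the table does not list ends a run. The number of genes in runs depends on the definition: at a minimum of 3 tags it was 123 and 54, and at a minimum of 5 it was 28 and 15.

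The longest run on the bran-cellulose side held 7 tags and began at PDE_04023. PDE_04023 itself was at 44.8, 48.6 and 61.6 FPKM on bran-cellulose and 3.61, 5.25 and 5.29 on GlcNAc (ratio 10.9, log2 difference 3.20, SE 0.24, adjusted p = 3.40e-08). Means of the 7 ran from 1.65 to 51.6 FPKM on bran-cellulose and from 0.0400 to 10.2 on GlcNAc. Their log2 differences ran from 1.35 to 3.20, with adjusted p values from 4.67e-09 to 3.85e-06. Apart from the first tag and 1 other, they were below 10 FPKM on both media, so those 5 differences stand on levels of a few FPKM. In the deletion strain 2 of the 7 were called, and the log2 differences of all 7 ran from 0.48 to 1.20. By the test of the difference between genotypes the media difference was greater in the wild type for all 7 (gaps of 0.47 to 2.33, adjusted p between 5.13e-05 and 0.0286), and 4 of the gaps also passed the fold threshold. The 7 tags were chosen by their wild-type calls. The same wild-type libraries enter this test, so a greater wild-type difference was favoured in advance.

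On the GlcNAc side 3 runs shared the greatest length of 5 tags, and the one with the greatest median difference (-4.71 on the log2 scale) began at PDE_03413. PDE_03413 was listed at 0 in all 3 bran-cellulose libraries and was at 21.7, 24.5 and 29.9 FPKM on GlcNAc (adjusted p = 6.83e-10). Means of the 5 ran from 0 to 2.89 FPKM on bran-cellulose and from 15.8 to 171.6 on GlcNAc, and log2 differences from -5.47 to -3.16 (adjusted p between 3.35e-10 and 5.88e-08). On glucose the wild type held these genes at 0.750 to 18.5 FPKM. In the deletion strain on GlcNAc they lay between 0.0467 and 2.32 FPKM, and the media difference was smaller there for all 5, by the test of the difference itself (-5.98 to -2.44, adjusted p between 1.67e-08 and 4.39e-06). These 5 tags were likewise chosen by their wild-type calls, so a smaller difference in the deletion was favoured in advance.

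Of the 27 genes in runs on the GlcNAc side, 4 had the same call in the deletion strain, and these 4 formed 1 run, while in 5 of the 6 runs none was. Of the 48 in runs on the bran-cellulose side 29 were, with at least 1 in each of the 10 runs. Among all called genes, those in runs included, 29.2% on the GlcNAc side and 42.2% on the bran-cellulose side had the same call in the deletion. The share was thus lower on the GlcNAc side among all calls as well. The difference between the shares in runs was not tested.

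**Figure D4:**
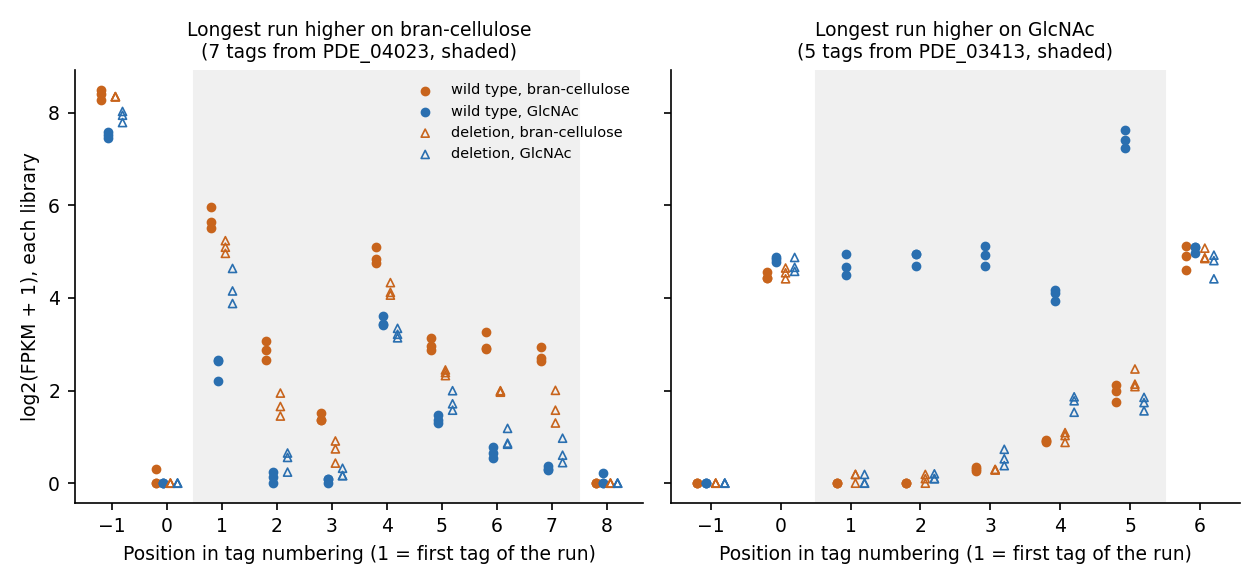
log2(FPKM + 1) in each library (vertical) along the tag numbering (horizontal, 1 is the first tag of the run, shaded) for the longest run on each side with the listed tags next to it; circles are wild type, triangles the nag3 deletion, orange bran-cellulose and blue GlcNAc. In the right panel only the wild-type GlcNAc libraries stand high at positions 1 to 5, while the tag after the run is at like levels in all groups.

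The same pair of media in the nag3 deletion strain shares no library with the wild type and was set beside it. The table does not name nag3, so the deletion was not checked by its transcript here. In the deletion strain 941 of the members were higher on bran-cellulose and 637 on GlcNAc, beside 11.4% and 8.75% of all genes fitted. By the adjusted p alone the numbers of members were 2154 and 2312, so which side is greater depends on the fold threshold. Of the 1012 genes on the wild type's bran-cellulose side, 427 (42.2%) had the same call in the deletion, 57 had the opposite call and 528 were not called. Of the 541 on its GlcNAc side the numbers were 158 (29.2%), 45 and 338. A gene that was not called can still differ below the thresholds. The median log2 difference in the deletion was 0.78 over the 1012 genes and -0.25 over the 541. Both sets were chosen by their wild-type values, so smaller differences in the deletion were favoured in advance. Of the 941 and 637 members called in the deletion, the 427 genes were 45.4% and the 158 were 24.8%. Members were set by the wild-type libraries, and over all genes fitted the deletion gave 954 and 734 calls. Across the 7959 members the 2 sets of differences had a Pearson correlation of 0.43, a description across genes that are not independent replicates.

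Tested directly, the media difference itself differed between genotypes for many genes. It was more positive in the wild type for 1183 members and more negative for 816, beside 15.3% and 9.8% of all genes fitted. After median-ratio scaling the numbers were 806 and 1094, so which of them is greater depends on the scaling. The median difference of all members was 0.16 in the wild type and -0.015 in the deletion.

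All 4 cellulase genes had a smaller media difference in the deletion strain, and it stayed far above the threshold there. cel7A-2 had a log2 difference of 7.21 in the deletion, where it was at 1495 ± 140 FPKM on bran-cellulose and 9.11 ± 1.25 on GlcNAc. The gap to the wild type was 2.15 (SE 0.30, adjusted p = 3.27e-05). For cel6A, cel7B and cel5B the gap was 2.03, 1.29 and 1.27, with adjusted p values of 6.41e-06, 1.61e-05 and 2.29e-05. For amy15A it was 1.99 (SE 0.32, adjusted p = 0.000111). On GlcNAc amy15A was at 238.8, 147.7 and 155.5 FPKM in the deletion against 47.5 ± 0.679 in the wild type, and on bran-cellulose at 356.8 ± 29.7 against 389.6 ± 42.7. xyn10A (1.20) and clrB (1.43) also had a greater difference in the wild type, with adjusted p values of 5.01e-05 and 5.41e-05. As a ratio of means, the genotypes were further apart on bran-cellulose for xyn10A and on GlcNAc for clrB. Differences between genotypes within a medium were not tested. Mean xyn10A was 34.0 FPKM in the wild type and 15.7 in the deletion on bran-cellulose, and 2.25 and 2.54 on GlcNAc. Mean clrB was 110.4 and 96.2 FPKM on bran-cellulose, and 8.17 and 20.5 on GlcNAc.

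For the β-glucosidase genes the test found no gap between genotypes past the threshold. For bgl2 the log2 differences were 6.93 in the wild type and 6.82 in the deletion, a gap of 0.11 (SE 0.22, adjusted p = 0.703), and for bgl1 they were 1.81 and 1.66, a gap of 0.15 (SE 0.15, adjusted p = 0.440). A missed threshold does not show that they are equal, and both gaps turned negative after median-ratio and quantile scaling (-0.085 and -0.019 for bgl1, -0.11 and -0.093 for bgl2). The gap of creA was 0.95, that of xlnR 0.94 and that of amyR -0.90, each with an adjusted p under 0.05 (0.00520, 0.00106 and 0.0150) but below the fold threshold. amyR alone among the tags had a greater difference in the deletion with an adjusted p under 0.05 (3.78 against 2.88). For brlA the gap was -0.69 (SE 0.48, adjusted p = 0.248).

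**Figure D5:**
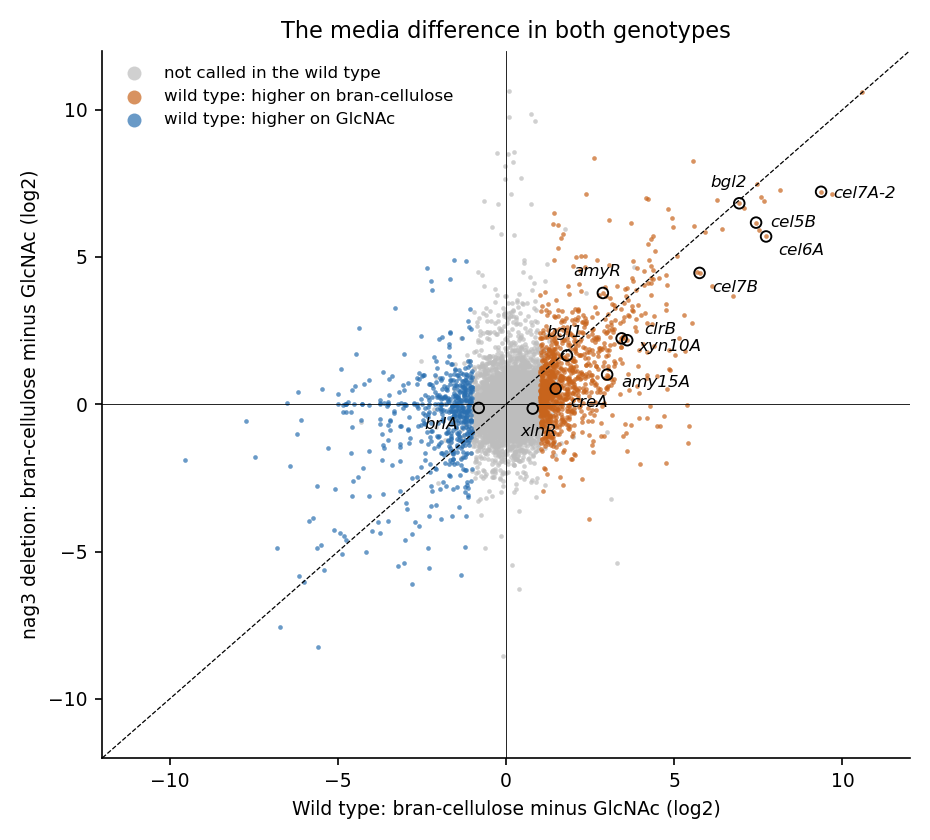
Bran-cellulose minus GlcNAc on the log2(FPKM + 1) scale in the wild type (horizontal) and in the nag3 deletion strain (vertical) for the 7959 members, coloured by their call in the wild type; the dashed line marks equal differences and circles mark the 13 tags. The cellulase genes lie below the dashed line, bgl1 and bgl2 close to it and amyR above it; many blue genes lie near 0 on the vertical axis.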

How the data were processed

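The authors deposited FPKM values with 2 decimals for 9261 identifiers (9226 PDE_ tags and 35 XLOC_ loci), per the file headers. For the aligner, counter, genome build and annotation, nothing is given in the sources used here. Per the labels' protocols the libraries were NlaIII and MmeI tag libraries, in which length plays no part, while FPKM divides by it. For 1 gene the divisor is constant across libraries, but it decides how the gene stands to the filter and the offset. It also enters every order of different genes by FPKM and every share of summed FPKM, so these may not hold for transcript numbers. Each of the 18 columns was matched to its sample by name. Read counts were not used here. Steps of 1 read at low values put the worth of 1 read in the 5 other libraries within 0 to 0.15 (log2) of GlcNAc replicate 1, but held only 5.26% to 18.6% of low genes, so reads were not recovered, the absolute depth is unknown and no count test was run.

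The 8390 genes that reached 1 FPKM in 3 or more of the 18 libraries were fitted together on log2(FPKM + 1). The fit was limma 3.58.1 (R 4.3.3) with a mean for each of the 6 groups and an intensity trend, and tests were two-sided. Benjamini-Hochberg adjustment ran over all 8390 p-values. Log2 differences on this scale understate the change of low genes. Positive values mean higher on bran-cellulose, or a more positive difference in the wild type. No exact permutation test was run, since 3 libraries against 3 allow no p under 0.1. The script was tested on simulated data first. Alternatives were another offset, scaling, filter, set of samples, array weights, prior, fold threshold and replicate block, and leaving out each library. Figures were drawn with matplotlib 3.10.9.

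The members, tags and tests were chosen with earlier results of these data known. The reference gene table is of another strain and matched 0 identifiers. Named identifiers were the 13 tags and, per direction, the called gene with the greatest difference (at least 10 FPKM on the higher medium, no overlap) and the first tag of the longest run.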

Additional observations from a re-analysis of the deposited data

Results flagged for a closer look

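The following differences between media were themselves different between wild type and nag3 deletion, by limma's test of that difference at an adjusted p under 0.05; each value is the wild type's log2 difference (bran-cellulose minus GlcNAc) minus that of the deletion. Among the tags they were 2.15 for cel7A-2, 2.03 for cel6A, 1.29 for cel7B, 1.27 for cel5B, 1.20 for xyn10A, 1.99 for amy15A, 1.43 for clrB, 0.94 for xlnR, 0.95 for creA and -0.90 for amyR. Among the other identifiers they were 2.33 for PDE_04023 (adjusted p = 5.13e-05), -4.77 for PDE_03413 (adjusted p = 7.80e-08) and -7.65 for PDE_02095 (adjusted p = 0.00714). These other identifiers were chosen for their wild-type difference or for the run of wild-type calls that they begin. The test reuses those wild-type libraries, so gaps in the wild type's direction were favoured and the p-values are too small to that extent.

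PDE_02095 was at 0, 0 and 124.2 FPKM on GlcNAc in the deletion strain, against 1739 FPKM or more in each wild-type library on GlcNAc. Groups of 3 libraries were too small to be searched for single outlying libraries.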

How the results depend on the processing

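Without the fold threshold, the members called higher on bran-cellulose and on GlcNAc were 2717 and 1268 in the wild type, beside 32.8% and 15.3% of all genes fitted. In the deletion they were 2154 and 2312, against 941 and 637 with the threshold, so which side is greater there depends on it. The difference between genotypes was more positive in the wild type for 2635 and more negative for 1439. For the deletion and for this difference, shares of all genes fitted were computed only with the fold threshold. Genes in runs were 123 and 54 at a minimum of 3 tags, 28 and 15 at a minimum of 5, and 113 on the bran-cellulose side with 1 tag not called allowed inside a run. Genes listed at 0 on GlcNAc were 31 when 5 FPKM sufficed in the other medium and 29 when values under 0.5 FPKM counted as 0. All other counts of calls stayed within 1.5 times of the reported ones under the alternatives run. Leaving out 1 library gave 983 to 1025 and 507 to 530 wild-type calls. Median-ratio and quantile scaling called 813 and 769 genes on the bran-cellulose side, 813 and 767 of them among the 1012.

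The calls of the 11 tags higher on bran-cellulose held under every alternative run. Both gaps between genotypes that reversed were uncalled: bgl1 (-0.085 under median-ratio, -0.019 under quantile scaling) and bgl2 (-0.11 and -0.093). The gaps of xlnR, creA and amyR passed the fold threshold in some fits, among them array weights (1.17 and 1.12 for xlnR and creA) and median-ratio scaling (-1.12 for amyR); over the libraries left out they ran from 0.83 to 1.05, 0.79 to 1.16 and -1.04 to -0.82. The causes were not tested.

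With the replicate number as a block, 1012 and 539 genes were called, 1011 and 536 of them among those reported. Deviations of same-numbered libraries from their group means correlated at -0.035, 0.21 and 0.071, and those of other pairs at -0.16 to 0.068. The labels do not tie the numbers together, and not every pair was positive, so the libraries were not treated as paired; 4 of the 6 libraries correlated best with their own number, a hint from the data and not from the design.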
